A study of Homo sapiens with 8 samples.

Results

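Macropinocytosis regulators are followed here as 9 genes, RAC1, CDC42, PAK1, PAK2, CYFIP1, NCKAP1, ARF6, ANKFY1 and SNX5, taken by symbol from a table of 58206 genes. All 9 were found once in the table and all 9 passed the expression filter, among 14289 genes tested. RNA sequencing covered 8 libraries of Alexander1, an established human hepatocellular carcinoma line. The 4 parental libraries carry the genotype label wt (Axin1 -), which the series describes as lacking the part of the scaffold protein Axin1 that binds the kinase GSK3, with a permanently active Wnt pathway. The 4 libraries labelled Axin1+ come from a derivative that received full-length Axin1 on a retroviral plasmid, followed by hygromycin selection of clones, and the series puts its Axin1 at a physiological level. The treatment text is the same for all 8 samples, and neither the number of clones nor the promoter driving Axin1 is given in the labels. Nothing in the labels says that replicates came from separate cultures, so the p-values measure only the spread between these libraries.

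Macropinocytosis is the uptake of extracellular fluid in large vesicles that form when sheets of actin-filled membrane, called ruffles, fold back and close. The GTPases RAC1 and CDC42 switch on the ruffle, p21-activated kinases (PAKs) carry their signal onward, and the WAVE complex, to which CYFIP1 and NCKAP1 belong, turns active RAC1 into branched actin through the Arp2/3 complex. ARF6 moves membrane and lipid kinases to the ruffle, ANKFY1 (rabankyrin-5) acts with Rab5 on the new vesicle, and SNX5 is a sorting nexin found on macropinosomes and endosomes. Cancer cells, including those of the liver, use the process to take up protein as food, and the series concerns endocytosis under canonical Wnt signalling. The question addressed is whether the mRNAs of these regulators differ between the labels.

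Libraries held between 11232951 and 15263761 counts in the parental and between 12372436 and 26400782 counts in the Axin1+ group. Levels are given as CPM, counts per 1000000 of the library total after TMM scaling. AXIN1 mRNA itself did not separate the labels, at 52.4 CPM ± 3.49 in parental and 45.4 CPM ± 5.13 (SD, n = 4 each) in Axin1+ libraries (edgeR adjusted p = 0.267). AXIN1 had been planned as the check of the labels, and its total was not higher in Axin1+ libraries (log2 fold change -0.21). A gene total cannot tell AXIN1 lacking that part from the full-length form. The labels, on which all directions below rest, therefore remain unchecked. Hepatocyte and hepatoma markers were present (10 of 10 tested), their summed level lying between 21453 and 25164 CPM in parental and between 14233 and 16772 CPM in Axin1+ libraries. SERPINA1 made up most of that sum (16130 and 10358 CPM on average) and was called lower with APOA2 and GPC3, while TTR was called higher. Simple epithelium markers summed to between 4147 and 5138 CPM in parental and between 3464 and 5089 CPM in Axin1+ libraries, nearly all of it KRT8 and KRT18, neither called. CDH1 was called higher (152 and 214 CPM on average), and EPCAM, with at most 5 counts in a library, was not tested. Summed fibroblast markers stayed between 1.23 and 4.59 CPM over all libraries. Among them PDGFRB was called lower (1.69 and 0.221 CPM on average) and COL1A1 was not called. Endothelial markers summed to between 4.58 and 6.77 CPM in parental and between 34.1 and 58.5 CPM in Axin1+ libraries, nearly all of it PECAM1, with TEK at 0 counts in every library. Leukocyte markers summed to between 422 and 949 CPM in parental and between 672 and 920 CPM in Axin1+ libraries, nearly all of it lysozyme (LYZ), with CD3E and MS4A1 at 0. Whether these marker differences have a part in the results below was not tested, and in bulk RNA fewer cells of a type cannot be told apart from less RNA per cell.

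One parental library stood apart. Parental replicate 1 lay at 61.5 on the second principal component (20.95% of variance), where the other libraries lay between -30.3 and 25.0. It was the lowest of the 4 parental libraries for 7 of the 9 regulators, against 38.6% of all genes tested. Its level was a median of 0.801 times the mean of the other 3 parental libraries over the 9 regulators, and 0.986 times over all genes. On the first component (55.9%) replicate 1 of the Axin1+ libraries, at 22.2, was nearest to the parental side, the others being at 48.7 or more. Fold changes of the regulators are therefore also given without each of these libraries.

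Promoter stretches of PAK2 and CDC42 are shown because these genes were called lower together with RAC1 and SNX5 when parental replicate 1 was left out (below). The SNX5 window, with no GC box and no TCF/LEF core, lies wholly in annotated exons and is not printed. RefSeq start-site windows on GRCh38.p14 covered 8 of the 9 regulators in 12 windows, and RAC1 was not matched. Only bases before the start site and outside exons annotated in GENCODE 29 are printed. Capitals mark GC boxes (GGGCGG, either strand, overlapping matches joined) and the TCF/LEF core (AACAAAG or ATCAAAG or else TACAAAG or TTCAAAG, either strand), the motif of the factors that act with beta-catenin.
PAK2, chr3:196739607-196739856, plus strand: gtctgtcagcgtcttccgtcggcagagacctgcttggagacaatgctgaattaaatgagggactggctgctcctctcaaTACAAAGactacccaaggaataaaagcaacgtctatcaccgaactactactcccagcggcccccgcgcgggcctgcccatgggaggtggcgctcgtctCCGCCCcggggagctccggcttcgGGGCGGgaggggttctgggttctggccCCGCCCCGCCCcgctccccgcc
CDC42, chr1:22052459-22052626, plus strand: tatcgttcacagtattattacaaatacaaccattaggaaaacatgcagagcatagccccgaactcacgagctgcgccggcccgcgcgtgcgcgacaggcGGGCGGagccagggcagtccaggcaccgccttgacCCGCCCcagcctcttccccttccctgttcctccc
In windows of 250 bases, the TCF/LEF core was matched in 1 of the 12 regulator windows (8.33%), that of PAK2, and in 11.96% of all 35116 windows. A GC box was matched in 8 of the 12 (66.7%) and in 42.6% of all windows, the regulator windows without one being that of SNX5 and 3 of the 4 of CYFIP1. Counted by gene, a GC box was matched for 7 of the 8 regulators. No share of all genes counted in that way is given, so this count cannot be read alone. Windows of the same gene partly overlap for ANKFY1 and CYFIP1, so the 12 are not separate units. The set of all windows was not limited to expressed genes. No CCAAT box (CCAAT) or TATA box (TATAAA) was matched in any of the 12 regulator windows, against 32.0% and 10.7% of all windows. Median GC content was 64.6% over the regulator windows and 58.0% over all of them. These matches describe letters and say nothing about binding.

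Of the 9 regulators, 1 was called between the labels, RAC1, which was lower in Axin1+ libraries (adjusted p under 0.05 in edgeR's quasi-likelihood test over all genes). That is 11.1% of the regulators, where 19.2% of all genes were called (8.77% as lower). At an unadjusted p under 0.05 there were 3, RAC1, CDC42 and SNX5, all lower, which is 33.3% of the 9, where 33.5% of all genes were at such a p in either direction. None was called higher by edgeR, DESeq2 or limma-voom, where edgeR called 10.4% of all genes higher. None was higher at an unadjusted p under 0.05, for which no share of all genes by direction is given. The 4 values of each group did not overlap for 2 regulators, RAC1 and SNX5, and for 23.9% of all genes. Absolute log2 fold changes of the regulators ran from 0.12 to 0.45 with a median of 0.20, where the median was 0.31 over all genes and 0.85 over the genes called.

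Without parental replicate 1, edgeR called 4 regulators lower, RAC1, CDC42, SNX5 and PAK2, which is 44.4% of the 9, against 24.1% of all genes called in either direction and 11.0% called lower. The same 4 were called lower without replicate 1 of both labels, a choice made after seeing the data, where 32.3% of all genes were called and 15.7% called lower. Without Axin1+ replicate 1, CDC42 and SNX5 were called lower, against 22.0% of all genes called. DESeq2's Wald test called RAC1, CDC42 and SNX5 lower, against 24.5% of all genes called and 12.1% called lower. With DESeq2 size factors in edgeR, RAC1 and CDC42 were called lower, against 19.4% of all genes called and 9.22% called lower. With limma-voom RAC1 alone was called lower, against 19.8% and 9.17%. No regulator was called with the replicate number as a block, against 14.2% of all genes called and 6.52% called lower, or without an expression filter, against 10.6% and 4.47%. Nor was any called without parental replicate 2, Axin1+ replicate 3 or Axin1+ replicate 4, where the share of all genes called was 10.5%, 10.7% and 9.71%.

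**Figure D1:**
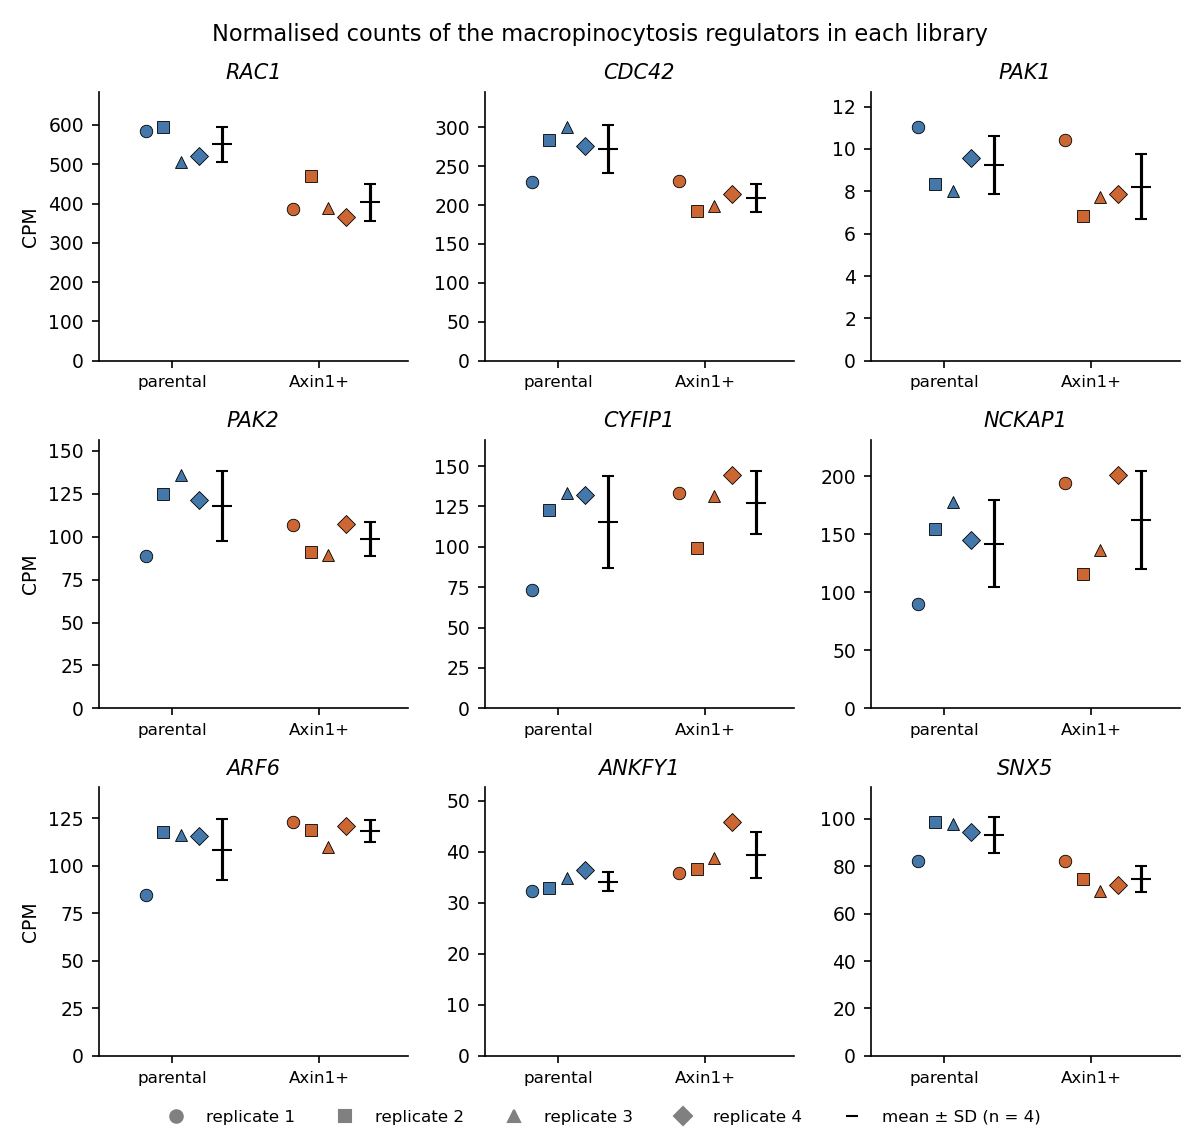
CPM of each regulator (vertical axis, from 0) in the 4 parental (blue) and the 4 libraries labelled Axin1+ (orange), 1 symbol per replicate number, with the mean ± SD in black. RAC1 and SNX5 are the genes whose groups do not overlap, and the parental circle (replicate 1) is the lowest parental point for 7 of the 9 genes.

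RAC1 (ENSG00000136238, chromosome 7, 6374523 to 6403977, plus strand of GRCh38) encodes the GTPase that starts ruffling. It stood at 584, 595, 506 and 521 CPM in parental replicates 1 to 4 and at 385, 471, 389 and 366 CPM in Axin1+ replicates 1 to 4. Every Axin1+ library was below every parental one, the nearest pair being 471 and 506 CPM. The means were 551 CPM ± 44.5 and 403 CPM ± 46.7 (SD, n = 4 each), a 1.37-fold lower level, which is -0.45 on the log2 scale (SE 0.13, 95% confidence interval -0.74 to -0.17, edgeR adjusted p = 0.0327). The exact two-sided permutation test over 70 labelings gave p = 0.0286, the smallest it can give. The call was lost in 6 of 16 alternative analyses at nearly the same size of change. These were the analyses without parental replicate 2 and without Axin1+ replicates 1, 3 or 4 (edgeR adjusted p = 0.102, 0.0537, 0.0975 and 0.104), the one without an expression filter (0.0803) and the one with the replicate number as a block (0.0629). The log2 fold change ranged from -0.54 to -0.37 over all 16, with adjusted p between 0.0028 and 0.104, and was -0.43 without parental replicate 1 and -0.43 without Axin1+ replicate 1. Counts were seen for 1 of 9 RAC1 pseudogenes, at most 0.531% of the RAC1 and pseudogene sum in any library. The 40 nearest tested genes on the chromosome showed a median of -0.19 on the log2 scale. Of these, 11 were called, all lower, where 19.2% of all genes were called and 8.77% called lower.

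CDC42 (ENSG00000070831, chromosome 1, 22052627 to 22092946, plus strand), the GTPase that drives filopodia and also acts in ruffles, stood at 229, 283, 300.1 and 276 CPM in parental and 231, 192, 199 and 214 CPM in Axin1+ replicates. The groups met only through parental replicate 1, which lay just under Axin1+ replicate 1, and all other parental values were above all Axin1+ values. Its log2 fold change of -0.38 (SE 0.13, 95% interval -0.66 to -0.10) missed the threshold (edgeR adjusted p = 0.0565, exact permutation p = 0.0571). It was -0.46 with an edgeR adjusted p of 0.0157 without parental replicate 1, -0.43 with 0.0423 without Axin1+ replicate 1, and -0.39 with an adjusted p of 0.0131 in DESeq2. CDC42 was called in 5 of 16 alternative analyses and not in the other 11. Over all 16 the log2 fold change ranged from -0.50 to -0.30, with adjusted p between 0.0057 and 0.181. Its exons overlap AL031281.2 on the same strand, a gene not analysed here, and the 40 neighbours had a median of -0.13. Of these neighbours 13 were called, 4 as higher and 9 as lower, where 19.2% of all genes were called and 8.77% called lower.

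PAK2 (ENSG00000180370, chromosome 3, 196739857 to 196832647, plus strand), the broadly expressed kinase activated by both GTPases, gave 88.6, 125, 136 and 122 CPM in parental and 107, 90.8, 89.3 and 107 CPM in Axin1+ replicates. Parental replicate 1 was the lowest of all 8 libraries, and the other parental libraries were above every Axin1+ library. Its log2 fold change of -0.26 (SE 0.15, 95% interval -0.58 to 0.06) missed the threshold (edgeR adjusted p = 0.244), and it was -0.37 without parental replicate 1, with an edgeR adjusted p of 0.0384, and -0.30 without Axin1+ replicate 1 (0.214). PAK1 (ENSG00000149269, chromosome 11, 77321707 to 77474635, minus strand), the kinase most often tied to macropinocytosis, was the scarcest of the regulators, with between 83 and 290 counts per library. It gave 11.04, 8.33, 8.02 and 9.59 CPM in parental and 10.4, 6.85, 7.74 and 7.89 CPM in Axin1+ replicates. The groups overlapped, replicate 1 being the highest in each, and the log2 fold change was -0.16 (95% confidence interval -0.59 to 0.26, edgeR adjusted p = 0.590). It moved to -0.069 without parental replicate 1, -0.087 without Axin1+ replicate 2 and -0.30 without Axin1+ replicate 1.

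Neither CYFIP1 nor NCKAP1, both WAVE complex subunits, was called. CYFIP1 (ENSG00000273749, chromosome 15, 22867052 to 22981063, minus strand), which binds active RAC1, gave 73.2, 123, 133 and 132 CPM in parental and 133, 99.1, 132 and 145 CPM in Axin1+ replicates. Its log2 fold change was 0.14 (95% confidence interval -0.28 to 0.57, edgeR adjusted p = 0.646), and -0.026 without parental replicate 1, 0.12 without Axin1+ replicate 1, 0.076 without Axin1+ replicate 4 and 0.24 without Axin1+ replicate 2. Exons of CYFIP1 share 1333 bases with NIPA2 on the opposite strand, itself between 77.0 and 137 CPM, and use of strand in counting is not stated. NCKAP1 (ENSG00000061676, chromosome 2, 182909115 to 183038858, minus strand), the partner that holds CYFIP1 in the complex, gave 89.9, 155, 178 and 145 CPM in parental and 194, 116, 137 and 201 CPM in Axin1+ replicates. It was the most variable regulator, with SDs of 26.3% and 26.1% of the group means, and its log2 fold change of 0.19 had a 95% confidence interval from -0.31 to 0.70 (edgeR adjusted p = 0.591). The value was 0.026 without parental replicate 1, 0.093 without Axin1+ replicate 1 and 0.073 without Axin1+ replicate 4, and 0.31 without parental replicate 3 and 0.32 without Axin1+ replicate 2.

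ARF6 (ENSG00000165527, chromosome 14, 49893092 to 49897054, plus strand), the GTPase of membrane recycling at the ruffle, gave 84.5, 118, 116 and 116 CPM in parental and 123, 119, 109.9 and 121 CPM in Axin1+ replicates. Apart from parental replicate 1 all values lay between 109.9 and 123 CPM. The log2 fold change was 0.12 (95% confidence interval -0.16 to 0.41, edgeR adjusted p = 0.541), and 0.019 without parental replicate 1 and 0.10 without Axin1+ replicate 1. ANKFY1 (ENSG00000185722, chromosome 17, 4163907 to 4263995, minus strand), the Rab5 effector, gave 32.2, 33.0, 34.9 and 36.4 CPM in parental and 35.8, 36.7, 38.8 and 45.7 CPM in Axin1+ replicates. Only Axin1+ replicate 1 lay below the highest parental value, and the log2 fold change was 0.20 (95% confidence interval -0.07 to 0.48, edgeR adjusted p = 0.284, exact permutation p = 0.0571). It was 0.18 without parental replicate 1, 0.24 without Axin1+ replicate 1 and 0.12 without Axin1+ replicate 4.

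SNX5 (ENSG00000089006, chromosome 20, 17941597 to 17968980, minus strand), whose protein bends membrane into sorting tubules, gave 82.1, 98.4, 97.6 and 94.2 CPM in parental and 81.9, 74.7, 69.3 and 72.1 CPM in Axin1+ replicates. Every Axin1+ library was below every parental one, with parental and Axin1+ replicates 1 almost touching. Its log2 fold change of -0.32 (SE 0.11, 95% interval -0.57 to -0.07) missed the threshold (edgeR adjusted p = 0.0681, exact permutation p = 0.0286, the smallest it can give). Without parental replicate 1 it was -0.38 with an edgeR adjusted p of 0.0262, without Axin1+ replicate 1 it was -0.37 with 0.0487, and DESeq2 on all libraries gave an adjusted p of 0.0223. SNX5 was called in 4 of 16 alternative analyses and not in the other 12. Over all 16 the log2 fold change ranged from -0.42 to -0.24, with adjusted p between 0.0128 and 0.271. The 40 neighbours had a median of -0.18, and 7 of them were called, 6 as lower, against 19.2% and 8.77% of all genes. Beside the remaining regulators the neighbour median was 0.085 (PAK1), -0.13 (PAK2), 0.26 (CYFIP1), -0.11 (NCKAP1), 0.18 (ARF6) and -0.069 (ANKFY1). For PAK1, NCKAP1 and ANKFY1 it had the sign opposite to that of the gene.

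**Figure D2:**
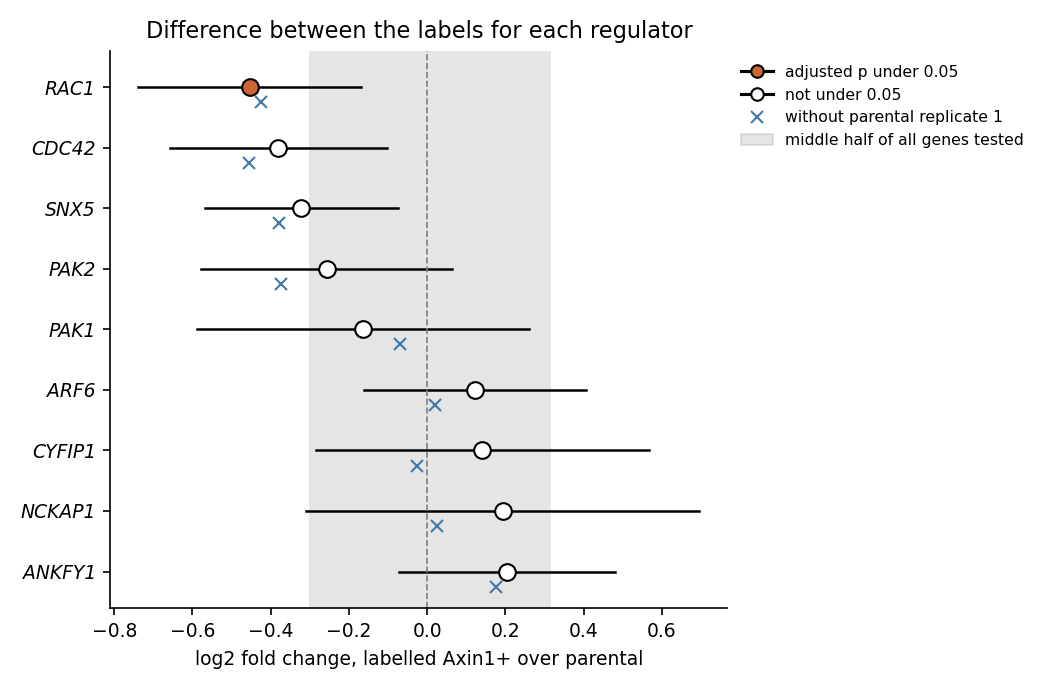
Log2 fold change, labelled Axin1+ over parental, for each regulator (points) with its 95% confidence interval (lines) and the value without parental replicate 1 (crosses). The grey band is the interquartile range of all genes tested, -0.30 to 0.32, and RAC1 at -0.45 is the only filled point (adjusted p under 0.05).

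**Figure D3:**
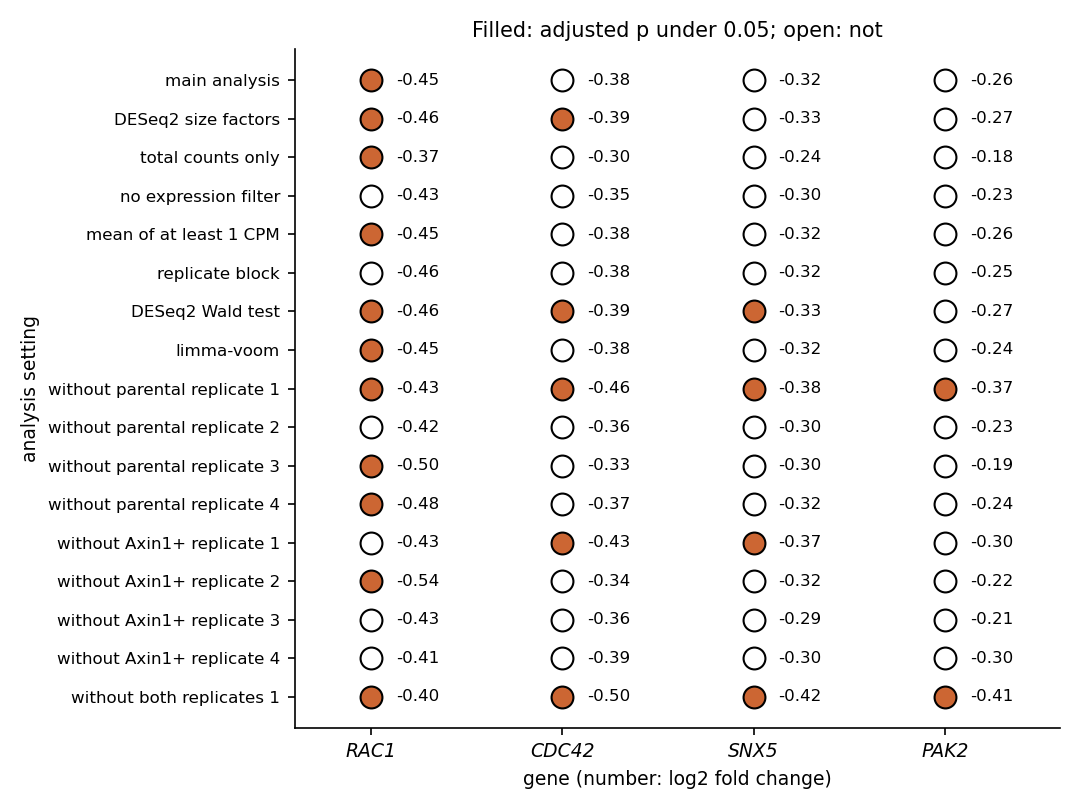
Calls for the 4 regulators with the lowest log2 fold changes (columns) in the main and 16 alternative analyses (rows), filled where the adjusted p is under 0.05, with the log2 fold change as a number. All 4 are filled in the analyses without parental replicate 1, and no column is filled throughout.

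Per length of gene the regulators spanned a wide range. With counts divided by kilobases of merged exons, RAC1 led at 177 CPM per kb ± 14.3 in parental and 129 ± 14.99 in Axin1+ libraries (SD, n = 4 each). CDC42 followed at 75.6 ± 8.42 and 58.1 ± 4.85, then ARF6 at 28.1 ± 4.14 and 30.6 ± 1.48 and PAK2 at 18.8 ± 3.26 and 15.7 ± 1.57 CPM per kb. These were separated from one another in both groups. SNX5 (11.7 and 9.37 CPM per kb) and CYFIP1 (11.1 and 12.2) overlapped in both groups and changed places between them, and CYFIP1 overlapped NCKAP1 (6.30 and 7.198) in the parental group, as SNX5 did in the Axin1+ group. ANKFY1 (2.41 and 2.78) and PAK1 (1.47 and 1.30) were lowest. RAC1 ranked 279 and PAK1 ranked 10760 among the genes tested on this scale. The middle of the order depended on the length used. Per kb of the longest principal coding transcript, a length chosen after seeing the data, SNX5 and NCKAP1 came next after CDC42, at 40.7 and 28.4 CPM per kb in parental and at 32.6 and 32.5 in Axin1+ libraries. NCKAP1 overlapped ARF6 in both groups and spanned the range of SNX5 in the Axin1+ group, while RAC1, CDC42, ANKFY1 and PAK1 kept their places in both groups.

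**Figure D4:**
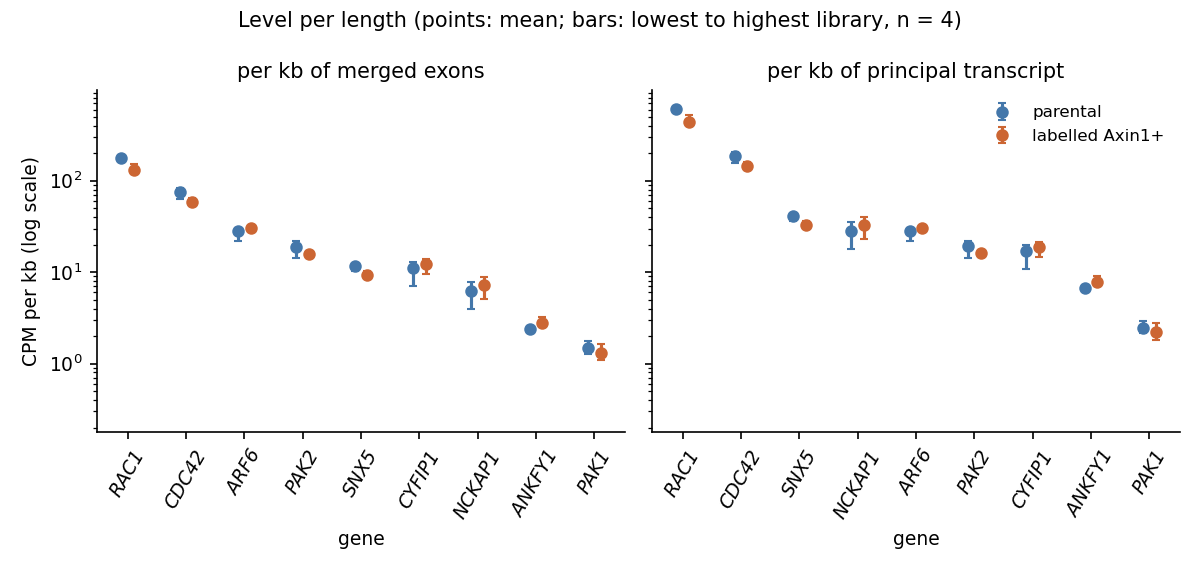
Mean CPM per kb (logarithmic axis) of each regulator in parental (blue) and Axin1+ (orange) libraries, per kb of merged exons (left) and of the principal transcript (right), with bars from the lowest to the highest of the 4 libraries. RAC1 and CDC42 are the 2 highest and ANKFY1 and PAK1 the 2 lowest on either length.

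Some close relatives of the regulators were called with larger differences. RAC3, a GTPase closely related to RAC1, stood at 18.5, 19.2, 21.7 and 20.3 CPM in parental and 5.74, 6.27, 6.997 and 5.93 CPM in Axin1+ replicates. The groups were far apart, and RAC3 fell by 1.68 on the log2 scale (SE 0.15, edgeR adjusted p = 6.3e-05) with no call lost in 16 alternatives. RAC2 had no count in any library, which allows up to between 0.107 and 0.267 CPM (3 counts), depending on the library. The ends of the RAC1 and RAC3 coding sequences, bases 490 to 579 in GENCODE 29, are shown because reads of the pair have to be told apart by such differences, with the bases that differ in capitals.
RAC1: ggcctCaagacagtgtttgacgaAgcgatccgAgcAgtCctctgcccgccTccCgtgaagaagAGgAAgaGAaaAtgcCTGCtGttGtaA
RAC3: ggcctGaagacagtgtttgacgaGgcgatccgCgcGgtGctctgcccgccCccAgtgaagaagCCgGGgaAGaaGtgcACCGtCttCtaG
The stretch holds 21 differences and the whole coding sequence 135 in 579 bases, the longest identical run being 17 bases. The log2 ratio of RAC1 to RAC3 counts was 4.79 ± 0.21 in parental and 6.004 ± 0.18 in Axin1+ libraries (SD, n = 4 each), without overlap. The difference of 1.22 had an exact two-sided permutation p of 0.0286, the smallest possible, and 0.114 after adjustment over the 4 paralog pairs compared. With that floor, an adjusted value under 0.05 was out of reach unless most of the 4 pairs reached it. The adjusted value therefore cannot decide whether the ratio differed.

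PAK3, a kinase of the same group as PAK1 and PAK2 best known in neurons, stood at 17.8, 6.91, 7.57 and 8.59 CPM in parental and 2.55, 0.743, 0.690 and 0.468 CPM in Axin1+ replicates. Replicate 1 was the highest in each group and the groups did not overlap. PAK3 fell by 3.14 on the log2 scale (SE 0.52, edgeR adjusted p = 0.0027), between -4.03 and -2.73 with 1 library left out. PAK4 was not called (96.6 CPM ± 19.3 and 102 CPM ± 18.6, edgeR adjusted p = 0.764), and PAK5 had no count. The log2 ratio of PAK1 to PAK2 counts was -3.66 ± 0.47 and -3.59 ± 0.19 (SD, n = 4 each; exact permutation p = 0.857). Coding sequences of PAK1 and PAK2 were 75.9% identical over aligned bases, with no identical run over 23 bases.

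Among the other Rac and Cdc42 GTPases, RHOG (-0.11), RHOQ (-0.10), RHOU (0.11) and RHOV (0.66) had edgeR adjusted p between 0.135 and 0.714 for the log2 fold changes given. Their activators, 19 exchange factors and partners, were all tested, with 2 higher and 2 lower and a median log2 fold change of -0.05. PREX1, a Rac exchange factor, rose from 1.51 CPM ± 0.553 to 11.2 CPM ± 2.65 (mean ± SD, 4 libraries each), or by 2.90 on the log2 scale (SE 0.29, edgeR adjusted p = 0.00016). ELMO1, a partner of DOCK exchange factors, fell from 2.74 CPM ± 0.898 to 0.643 CPM ± 0.282 (log2 -2.06, SE 0.40, edgeR adjusted p = 0.0057), while its relative ELMO2 rose (0.44, SE 0.11, adjusted p = 0.0225). The fourth was TRIO at -0.58 (edgeR adjusted p = 0.0296), named after its value was seen. Its call was lost without parental replicate 2. Of 11 tested GAPs and RhoGDIs, which switch these GTPases off, SRGAP3 (1.40) and SRGAP2 (0.55) rose and ARHGAP17 fell (-0.66), with edgeR adjusted p of 0.0014, 0.0488 and 0.0050. The calls for ELMO2 and SRGAP2 were lost in 6 and 11 of 16 alternatives.

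PAK partners and substrates went both ways, with 2 of 11 tested genes higher and 4 lower, where 10.4% of all genes were called higher and 8.77% lower. LIMK1, the kinase that PAKs use to restrain cofilin, fell from 45.4 CPM ± 6.41 to 26.9 CPM ± 4.57 (mean ± SD, 4 libraries each; log2 -0.75, SE 0.16, edgeR adjusted p = 0.0087). FLNA (filamin A, an actin crosslinker) rose by 0.94 and GIT1 (a scaffold for PAK and its exchange factor) by 0.45 on the log2 scale, with edgeR adjusted p of 0.0132 and 0.0162. The other 3 lower genes, named after their values were seen, were CTBP1, a PAK1 substrate in closure of macropinosomes (-0.42), cortactin (CTTN, -0.44) and NCK2 (-0.53). Their edgeR adjusted p was 0.0228, 0.0248 and 0.0391, and the calls of CTBP1, CTTN and NCK2 were lost without parental replicate 2.

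In the WAVE complex the 9 subunit genes beside CYFIP1 and NCKAP1 included 8 tested, 1 higher and 1 lower. WASF2, at 22.9 CPM per kb the highest of the 3 WAVE proteins in parental libraries (WASF1 3.29, WASF3 1.67), gave 139, 136, 118 and 127 CPM in parental and 109.9, 95.8, 82.6 and 73.2 CPM in Axin1+ replicates. No Axin1+ library reached the lowest parental value, and WASF2 fell by 0.53 on the log2 scale (SE 0.14, edgeR adjusted p = 0.0247). The call was lost without parental replicate 2 or Axin1+ replicates 3 or 4, with a highest adjusted p of 0.0817 over the alternatives. NCKAP1L, the blood-cell form of NCKAP1, had 1, 1, 0 and 0 counts in parental and 74, 51, 100 and 107 counts in Axin1+ replicates, and was called higher (edgeR adjusted p = 5.1e-05). At 3.99 CPM ± 0.957 it remained far below NCKAP1 itself, at 0.377 against 7.198 CPM per kb. WASF1, WASF3, CYFIP2, ABI1, ABI2 and BRK1 were not called, their log2 fold changes lying between -0.15 and 0.46. The log2 ratio of CYFIP1 to CYFIP2 counts was 2.13 ± 0.73 and 1.83 ± 0.06 (SD, n = 4 each; exact permutation p = 0.486).

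Arp2/3 genes, the actin-branching machine downstream of WAVE, were all tested with N-WASP and its partners (13 genes), and 2 were lower. These were the alternative subunits ACTR3B (-0.79, SE 0.21, edgeR adjusted p = 0.0239) and ARPC5L (-0.42, SE 0.11, edgeR adjusted p = 0.0269), whose calls were lost in 5 and 7 of 16 alternatives. Of the ARF family, ARF4 rose by 0.49 (edgeR adjusted p = 0.0491, lost in 9 of 16 alternatives), while ARF1 (-0.24), ARF3 (0.06) and ARF5 (-0.26) were not called. Among 15 tested ARF6 exchange factors and GAPs, IQSEC2 rose from 0.493 CPM ± 0.216 to 4.65 CPM ± 0.992 (mean ± SD, 4 libraries each; log2 3.19, edgeR adjusted p = 0.00023). CYTH2 rose by 0.53 (edgeR adjusted p = 0.0153), and ADAP1, a GAP, was lower by a call lost in 12 of 16 alternatives (-1.03, edgeR adjusted p = 0.0477).

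Rab5 and its machinery are the setting in which ANKFY1 works. Of 17 tested genes beside ANKFY1, 12 had a positive and 5 a negative log2 fold change, with a median of 0.33 against 0.00 over all genes, and 5 were called higher and 1 lower, where 10.4% of all genes were called higher and 8.77% lower. BECN1, a subunit of the lipid kinase complex of endosomes and autophagy, rose from 66.4 CPM ± 10.3 to 107 CPM ± 17.5 (mean ± SD, 4 libraries each; log2 0.69, SE 0.16, edgeR adjusted p = 0.0128). RAB5B rose from 113 CPM ± 10.03 to 150 CPM ± 1.43 (log2 0.41, SE 0.11, edgeR adjusted p = 0.0248), a call lost in 8 of 16 alternatives. RAB20, a Rab of macropinosomes, had 4, 0, 2 and 0 counts in parental and 29, 10, 40 and 43 in Axin1+ replicates, and was called higher (edgeR adjusted p = 0.0082). The other called genes, named after their values were seen, were APPL2 (0.63) and VPS45 (0.43), higher, and the Rab5 exchange factor RABGEF1 (-0.90), lower. The calls of APPL2, VPS45 and RABGEF1 were lost without parental replicate 2.

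Among the sorting nexins related to SNX5, SNX1 and SNX2, which form dimers with SNX5 or SNX6, had positive log2 fold changes of 0.39 (SE 0.13, edgeR adjusted p = 0.0529) and 0.48 (SE 0.15, edgeR adjusted p = 0.0486), where that of SNX5 was -0.32. SNX2 overlapped between the groups, and its call was lost in 9 of 16 alternatives. SNX6 (0.31), SNX9 (-0.14), SNX33 (-0.20), SNX32 (-0.32) and the retromer genes VPS26A, VPS26B, VPS29 and VPS35 (-0.01 to 0.19) were not called, and SNX18 rose by 1.01 (edgeR adjusted p = 0.0442, lost in 6 of 16 alternatives). The log2 ratio of SNX5 to SNX6 counts was 1.44 ± 0.37 in parental and 0.77 ± 0.27 in Axin1+ libraries (SD, n = 4 each). The difference of -0.67 had an exact permutation p of 0.0571, and of 0.114 after adjustment over the 4 pairs, under the same limit as for RAC1 and RAC3.

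Over all pathway lists, 150 of 164 genes other than the 9 regulators were tested, and 19 were higher and 15 lower, 22.7% against 19.2% of all genes. Their median log2 fold change was 0.01. The calls of LIMK1, FLNA, RAC3, PAK3, ELMO1, PREX1, ARHGAP17, SRGAP3, NCKAP1L, CYTH2, IQSEC2, RAB20 and BECN1 were kept in every alternative that tested them. So were those of PIK3CD and ANXA1, described further below. Without parental replicate 2 the calls of GIT1, ELMO2, SRGAP2, WASF2, ACTR3B, ARPC5L, ARF4, ADAP1, RAB5B, SNX2, SNX18 and PIP5K1C were lost. The highest adjusted p of these genes over all alternatives lay between 0.0564 (GIT1) and 0.147 (SNX2). Without Axin1+ replicate 3 the same calls except that of ACTR3B were lost, and without Axin1+ replicate 4 those except GIT1 and ACTR3B. Without parental replicate 3 the calls of ELMO2, SRGAP2, ACTR3B, ARPC5L, ARF4, ADAP1, RAB5B, SNX2 and PIP5K1C were lost. Without parental replicate 4 those of SRGAP2, ACTR3B, ARF4, ADAP1, RAB5B, SNX2, SNX18 and PIP5K1C were lost. ARF4, ADAP1 and SNX2 lost theirs without parental replicate 1, and SRGAP2, ADAP1, SNX2 and SNX18 without Axin1+ replicate 1. ACTR3B, ARF4, ADAP1, RAB5B and PIP5K1C lost theirs without Axin1+ replicate 2. Lost without parental replicate 2 as well were the calls of CTBP1, CTTN, NCK2, TRIO, APPL2, VPS45 and RABGEF1, for which the other settings are not given.

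**Figure D5:**
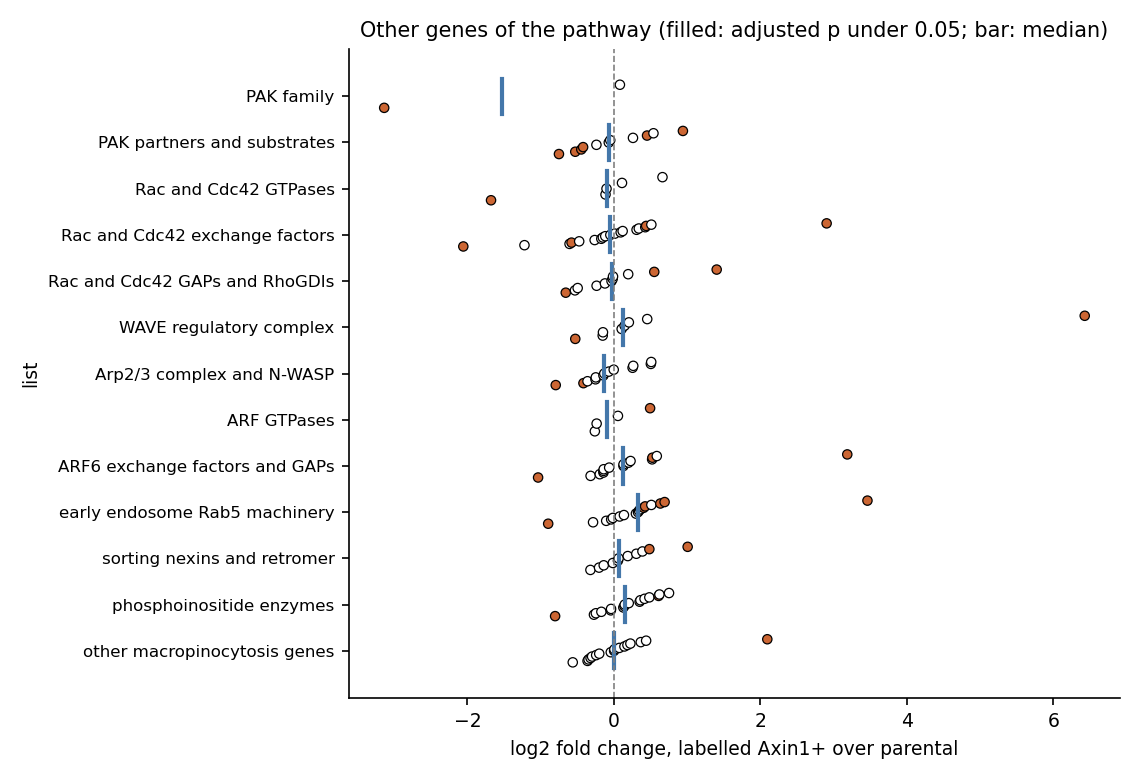
Log2 fold change of each tested gene of the pathway lists (points, filled where the adjusted p is under 0.05), without the 9 regulators, and the median of each list (bar). The Rab5 machinery has the highest median (0.33), and the far points of the WAVE and Rab5 lists, NCKAP1L and RAB20, rest on 0 to 4 parental counts, so that their positions depend on the prior count of the fit.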

How the data were processed

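The authors deposited a table of raw gene counts, whole numbers with unequal totals. The submitters' processing notes name bcl2fastq, fastp 0.23.1, STAR 2.7.4 and GRCh38. The counting program, annotation and use of strand are not given in the sources used here. Column names, which the labels repeat, gave each library its sample. Genes were kept by filterByExpr (minimum count 10, total 15), scaled by TMM and compared with edgeR 4.0.16 (R 4.3.3, glmQLFit and glmQLFTest, Benjamini-Hochberg over 14289 genes). An SE is the size of the fitted log2 value divided by the root of the F statistic. Alternatives used DESeq2 1.42.0 and limma 3.58.1. Paralog ratios used counts plus 0.5 in an exact permutation test over 70 labelings. Coordinates, exon lengths and coding sequences come from GENCODE 29, and promoters from RefSeq. The tests were also run on simulated counts with known changes and no library set apart, with an outcome not given here. That run does not address the effect of parental replicate 1. At least 99.75% of each library's counts lay in tested genes.

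Replicates of a group differed by more than counting noise (chi-square per degree of freedom of 9.19 or more). Regulators, lists and tests were chosen with earlier results of these data known. Named genes are the 9 regulators, AXIN1, relatives in the GTPase, PAK, WAVE, ARF and sorting nexin lists, and in each list the 3 tested genes with the smallest p.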

Additional observations from a re-analysis of the deposited data

Results flagged for a closer look

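In 26 groups of 4 values (9 regulators and 4 paralog ratios in each label), 2 held a library far from the others, where chance marks about 1 group in 20. CYFIP1 stood at 73.2 CPM in parental replicate 1 and between 123 and 133 CPM in the other parental libraries. ARF6 stood at 84.5 CPM in the same library and between 116 and 118 CPM in the others. Both values come from the library that the second principal component set apart.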

How the results depend on the processing

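The number of regulators called is given with the share of all genes called in brackets. It was 1 in the main analysis (19.2%), 2 with DESeq2 size factors (CDC42 and RAC1, 19.4%) and 3 with the DESeq2 Wald test (with SNX5 added, 24.5%). It was 0 without an expression filter (10.6%) and 0 at an adjusted p under 0.01, for which no share of all genes is given. It was 4 without replicate 1 of both labels (32.3%), a choice made after seeing the data, and ranged from 0 to 4 with 1 library left out. It was 4 without parental replicate 1 (24.1%) and 2 without Axin1+ replicate 1 (22.0%). It was 0 without parental replicate 2 (10.5%) or Axin1+ replicates 3 (10.7%) or 4 (9.71%), where over all genes the calls were 1508, 1531 and 1394 in place of 2738. Every call in these analyses was lower. At an unadjusted p under 0.05, edgeR marked 2 regulators without an expression filter. The share of all genes at such a p was 33.5% in the main analysis and is not given for that setting, so this count cannot be read alone.

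Pathway genes called higher numbered 19, and 6 at an adjusted p under 0.01, with 9 to 20 when 1 library was left out. Those called lower numbered 15, 8 with total counts only, 6 at an adjusted p under 0.01, 28 without both replicates 1, and 6 to 20 when 1 library was left out. Without parental replicate 2 there were 9 higher and 6 lower, 10.0% of the pathway genes tested against 10.5% of all genes. Without Axin1+ replicate 3 there were 9 higher and 7 lower, 10.7% against 10.7%.

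The sign of CYFIP1 reversed to -0.026 without parental replicate 1 and to -0.046 without both replicates 1, its range with 1 library left out being -0.026 to 0.24, and that of NCKAP1 reversed to -0.069 without both replicates 1. The cause was not tested. No other regulator changed direction in 16 alternatives.

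With the replicate number as a block, 0 regulators were called by edgeR, where 14.2% of all genes were called. At an unadjusted p under 0.05 there were 3 regulators, for which no share of all genes is given in that setting. Of the pathway genes 11 were higher and 11 lower, 14.7% of those tested. Same-numbered libraries correlated in their deviations from the group means at -0.063, 0.0067, -0.032 and 0.23, and not every library correlated best with its own number. The labels do not say whether libraries of the same number were prepared together, and these correlations cannot decide it. Over all genes the block gave 2033 calls where the main analysis gave 2738. The differences of the paralog ratios ranged, with 1 library left out, from -0.07 to 0.29 for PAK1:PAK2, 1.14 to 1.29 for RAC1:RAC3, -0.66 to -0.15 for CYFIP1:CYFIP2 and -0.80 to -0.51 for SNX5:SNX6. With 3 against 4 libraries that test cannot go below 0.0571. PAK1 had the lowest counts of the regulators, down to 83 in 1 library.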

Other observations

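Some genes of the pathway lie outside the comparisons above. Of 17 tested phosphoinositide enzymes, which make and remove the lipids that mark the ruffle and cup, 1 was higher and 1 lower. PIK3CD, a catalytic subunit of class I lipid kinase, fell from 25.7 CPM ± 2.73 to 14.7 CPM ± 2.16 (mean ± SD, 4 libraries each; log2 -0.80, SE 0.15, edgeR adjusted p = 0.0054), and no call was lost in 16 alternatives. PIP5K1C, which makes the substrate of those kinases, rose by 0.61 (SE 0.16, edgeR adjusted p = 0.0258, lost in 7 of 16 alternatives). PIK3R1 had a log2 fold change of 0.75 and missed the threshold (edgeR adjusted p = 0.0591).

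ANXA1, a membrane-binding annexin, stood at 43.5, 11.2, 15.9 and 8.66 CPM in parental and 59.1, 98.1, 88.8 and 90.4 CPM in Axin1+ replicates. It rose by 2.09 on the log2 scale (SE 0.43, edgeR adjusted p = 0.0081), and replicate 1 of each label lay nearest to the other label. The membrane-actin linker RDX had a log2 fold change of -0.35 (edgeR adjusted p = 0.0716).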
